A study of Mus musculus with 12 samples.

Results

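The genes described here are a module of 40 listed inflammatory cytokine and NF-kappaB genes. They comprise 7 cytokine genes, 10 chemokine genes, 8 receptors and sensors, 5 NF-kappaB subunits, 7 inhibitors and feedback regulators and 3 other targets. The members were listed by name, and each was read from the deposited log2 RMA values of the probe set annotated to that gene alone. Of the 40 genes, 39 had such a probe set among the 22180 genes measured, and 37 passed the filter on low values among the 19152 genes tested. Nfkb1 was not analysed here.

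The arrays came from 6 mouse leukaemias induced by the MLL-AF9 fusion oncogene, which all samples carried. Leukaemias 81, 83 and 85 were labelled Dnmt3b-knockin, a Dnmt3b overexpression, and leukaemias 73, 75 and 79 were labelled WT. Cells of each leukaemia were sorted by c-kit, a growth factor receptor of haematopoietic progenitors, into positive and negative fractions, giving 4 groups of 3 arrays. Where 3 values are given for a group, they follow the order 81, 83 and 85 or 73, 75 and 79. The tissue is not settled, because some labels say bone marrow and another says spleen. What drives the knock-in allele, any induction and the ages are not given in the sources used here, nor whether the numbers stand for separate mice. The p-values therefore measure the spread between these samples, which may be technical in part.

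NF-kappaB is a family of dimeric transcription factors that inhibitor of kappaB proteins hold in the cytoplasm of resting cells. Ligands of Toll-like receptors, of the interleukin-1 receptor and of tumour necrosis factor receptors act through adaptors such as Myd88 and through kinases that lead to degradation of the inhibitors. The freed dimers then bind kappaB motifs at genes of cytokines, chemokines, adhesion molecules and their own inhibitors, so that the response limits itself. In the myeloid lineage these genes are known from monocytes, macrophages and neutrophils, which use them in defence against microbes.

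Array medians were between log2 5.56 and 5.71, and Pearson correlations within a group were 0.933 to 0.986. Kit had 8.15, 7.88 and 7.98 in c-kit-positive and 6.47, 6.87 and 6.75 in c-kit-negative cells labelled Dnmt3b-knockin. Its WT values were 8.01, 8.13 and 8.34 in c-kit-positive and 6.69, 6.72 and 6.57 in c-kit-negative cells. Kit followed the sort without overlap and was 2.65-fold higher in c-kit-positive than in c-kit-negative cells (log2 1.41, SE 0.09). The knock-in label was not matched by a detectably higher RNA level of the gene it names. The 3 Dnmt3b-knockin leukaemias gave Dnmt3b values of 6.49, 6.38 and 6.33 in c-kit-positive and 6.16, 6.33 and 6.64 in c-kit-negative cells. Among WT leukaemias, Dnmt3b had 6.66, 6.41 and 6.33 in c-kit-positive and 6.25, 6.38 and 6.10 in c-kit-negative cells. The labels overlapped in both fractions. Dnmt3b averaged log2 6.39 ± 0.085 in the Dnmt3b-knockin leukaemias and 6.36 ± 0.124 in the WT leukaemias (SD, n = 3 leukaemias each), a difference of 0.03 with a 95% confidence interval of -0.19 to 0.25. Dnmt3b-knockin is used below only as the name of the label. The values are on a log2 scale in which a probe set's level cannot be set against that of another probe set. Comparisons of levels below therefore stay within a gene or within a fixed set of genes.

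Most members were lower in c-kit-positive than in c-kit-negative cells, over both genotypes. Of the 37 tested members, 9 fell in c-kit-positive cells and 0 rose at an adjusted p of 0.05 (limma, 12 arrays). Among all genes tested, 2.41% were called lower and 5.84% were called higher. The 9 members were Ccl6, Il1b, Nlrp3, Tlr2, Nfkbiz, Ccl3, Tlr6, Ccl2 and Il1r2, 24.3% of the members tested. The median difference over the members was -0.34 on the log2 scale, against -0.03 over all genes, and 35 members had a negative difference, against 58.0% of all genes. Fewer cells of a type and less RNA per cell cannot be told apart in such sorted bulk samples.

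Both arrays of a leukaemia carried its number and deviated together from their group means. With the leukaemia as a block, 22 members fell in c-kit-positive cells and 0 rose, while 6.61% of all genes were called lower. The 13 further members were Ccl4, Ccl9, Cxcl2, Icam1, Il1rn, Myd88, Nfkb2, Nfkbia, Rel, Tnf, Tnfaip3, Tnfrsf1b and Zfp36. In 19 of the 37 members the c-kit-positive array was the lower in 6 of 6 leukaemias, which is 51.35% of members, against 8.97% of all genes. No member was higher in 6 of 6 leukaemias, against 12.95% of all genes. The groups of 6 arrays did not overlap for 2 members, Il1b and Ccl6, against 1.26% of all genes lower without overlap.

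The count of 9 depended on the arrays used in the fit without the block, which ignores the pairing of both arrays. All 9 passed with the block (limma, adjusted p from 1.71e-05 for Ccl6 to 0.0117 for Tlr6). In each of the 9 the c-kit-positive array was the lower in 6 of 6 leukaemias. Calls lost without a leukaemia, here and below, are those of the fit without the block. Il1b, Ccl6 and Nlrp3 passed whichever leukaemia was left out. The count was 3 without leukaemia 73 or without leukaemia 75, 7 without leukaemia 79, 81 or 83, and 13 without leukaemia 85. After each array was centred on its median it was 5, with Ccl2, Ccl3, Tlr6 and Il1r2 no longer called, and without a filter it was 8 of the 39 measured members. Repeated quantile normalization kept all 9 and also called Ccl9, Myd88 and Tnfrsf1b. A stricter filter kept all 9 and also called Cxcl2.

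**Figure D1:**
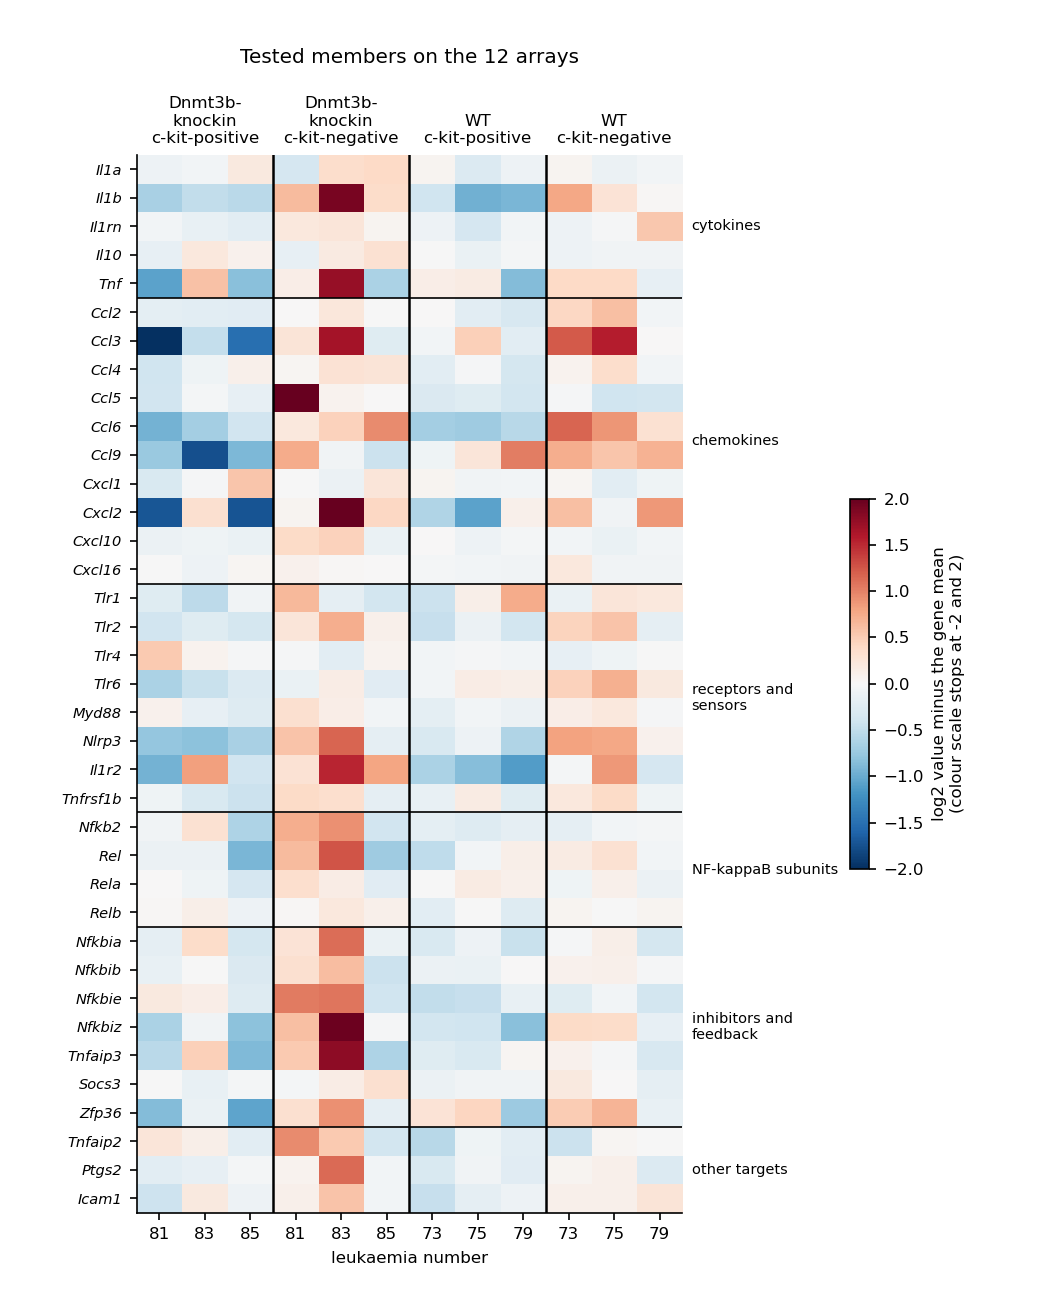
Log2 RMA value of each of the 37 tested members minus its mean over the 12 arrays (colour), by member (rows, grouped by role) and array (columns, by group and leukaemia number). The c-kit-positive columns are mostly blue and the c-kit-negative array of leukaemia 83 holds the highest value of 19 members.

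The promoters of 4 members are shown because the binding motif of the family, the kappaB consensus, was searched in them. RefSeq (GRCm38.p6) gave a window from 250 bases before to 50 after the start for 31 of the 40 members, and Nfkbiz is among those without an entry. Il1b, Nlrp3 and Tlr2 were taken from the called members with the smallest p, and Cxcl2 was chosen after its values were seen. Capitals mark bases that match the consensus on either strand, with overlapping matches counted apart.
Tlr2 promoter, chr3:83841559-83841858, minus strand: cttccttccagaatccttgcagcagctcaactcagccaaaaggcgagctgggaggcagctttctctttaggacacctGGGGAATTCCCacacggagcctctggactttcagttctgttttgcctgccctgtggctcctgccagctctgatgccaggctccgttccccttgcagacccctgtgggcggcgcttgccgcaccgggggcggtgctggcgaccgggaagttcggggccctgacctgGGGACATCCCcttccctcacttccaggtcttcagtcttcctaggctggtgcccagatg
Nlrp3 promoter, chr11:59541319-59541618, plus strand: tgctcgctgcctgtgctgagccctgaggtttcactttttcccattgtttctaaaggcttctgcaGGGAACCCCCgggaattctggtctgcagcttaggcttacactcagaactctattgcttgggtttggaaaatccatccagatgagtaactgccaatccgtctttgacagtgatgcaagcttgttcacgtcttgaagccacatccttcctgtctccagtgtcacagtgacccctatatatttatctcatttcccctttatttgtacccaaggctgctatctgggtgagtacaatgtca
Il1b promoter, chr2:129371090-129371389, minus strand: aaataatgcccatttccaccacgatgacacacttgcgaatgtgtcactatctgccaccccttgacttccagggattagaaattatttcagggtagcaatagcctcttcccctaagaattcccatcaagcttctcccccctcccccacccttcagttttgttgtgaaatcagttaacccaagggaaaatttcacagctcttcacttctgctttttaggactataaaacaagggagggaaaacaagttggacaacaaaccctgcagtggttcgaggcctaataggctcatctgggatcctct
Cxcl2 promoter, chr5:90903649-90903948, plus strand: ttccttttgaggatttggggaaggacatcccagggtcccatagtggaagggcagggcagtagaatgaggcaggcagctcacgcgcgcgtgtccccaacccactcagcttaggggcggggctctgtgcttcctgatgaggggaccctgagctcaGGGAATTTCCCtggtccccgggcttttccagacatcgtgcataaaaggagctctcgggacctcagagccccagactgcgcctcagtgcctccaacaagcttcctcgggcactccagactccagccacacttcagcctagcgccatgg

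The Tlr2 window held 3 matches, which begin 173, 172 and 8 bases before the start. The Nlrp3 window held GGGAACCCCC at 186 bases before the start, while a second Nlrp3 start had no match. In the Cxcl2 window GGGAATTTCC begins at 97 bases before the start, and its neighbour Cxcl1 carried the same 10 bases at 71. The Il1b window held no match, as did those of Ccl6 and Ccl3, which says only that these letters are not in these windows. Among the regulators, Nfkbia held GGAAATTCCC at 29 bases before the start and Rel held GGGAAATCCC at 92. A match stood in 13 of the 31 members with a window (41.9%), against 2581 of 27025 genes (9.55%), and in 2 of 7 called members with a window (28.6%). The members were picked for their place in this pathway, so these shares are a description.

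Among the cytokines, Il1b, which encodes interleukin-1 beta, a fever-inducing and leukocyte-activating cytokine, showed the clearest separation. The log2 values of Il1b were 5.40, 5.56 and 5.51 in c-kit-positive and 6.69, 7.95 and 6.42 in c-kit-negative cells of leukaemias 81, 83 and 85, labelled Dnmt3b-knockin. In WT leukaemias 73, 75 and 79 they were 5.65, 5.10 and 5.13 in c-kit-positive and 6.83, 6.33 and 6.07 in c-kit-negative cells. All 6 c-kit-positive values lay below all 6 c-kit-negative values, with leukaemia 83 highest in the c-kit-negative fraction. Il1b was 2.50-fold lower in c-kit-positive cells (log2 -1.32, SE 0.22, adjusted p = 0.00381 with limma).

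Tnf, the gene of tumour necrosis factor, was lower in the c-kit-positive array of all 6 leukaemias but spread widely between leukaemias. In Dnmt3b-knockin leukaemias Tnf measured 6.98, 8.63 and 7.22 in c-kit-positive and 8.18, 9.80 and 7.42 in c-kit-negative cells. WT leukaemias gave 8.19, 8.21 and 7.18 in c-kit-positive and 8.45, 8.45 and 7.89 in c-kit-negative cells. The groups overlapped, with leukaemia 83 high in both fractions and leukaemias 85 and 79 low in both. The difference of -0.63 passed with the leukaemia as a block (adjusted p = 0.00394) but not without it (adjusted p = 0.343). Il1rn, the interleukin-1 receptor antagonist, behaved alike in its test, with a difference of -0.31 and an adjusted p of 0.0981, or 0.0174 with the block.

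Il10, an anti-inflammatory cytokine, and Il1a, interleukin-1 alpha, did not pass in any of the 7 comparisons. Il1a exceeded the filter of log2 4.61 on only 3 of 12 arrays. Il6 lay between 3.39 and 3.78 and Il18 between 3.85 and 4.14 on the 12 arrays, so both stayed under the filter on every array and were not tested. No direction is given for them.

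The chemokine genes held the largest differences. Ccl3, Ccl4, Ccl5, Ccl6 and Ccl9 are neighbours on chromosome 11 with 0 protein-coding genes between them in RefSeq, and the spans of Ccl3 and Ccl4 overlap there. Their proteins attract monocytes, lymphocytes and granulocytes. Ccl6 reached 4.22, 4.49 and 4.79 in c-kit-positive and 5.38, 5.63 and 6.11 in c-kit-negative cells labelled Dnmt3b-knockin. The WT arrays showed 4.48, 4.46 and 4.61 in c-kit-positive and 6.34, 6.05 and 5.48 in c-kit-negative cells. All 6 c-kit-positive values were below all 6 c-kit-negative values. Ccl6 was 2.51-fold lower in c-kit-positive cells (log2 -1.33, SE 0.16, adjusted p = 0.000403). It exceeded the filter on 8 arrays, including every c-kit-negative array but only 2 c-kit-positive ones, so it passed the filter mainly through the fraction in which it was high.

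Arrays labelled Dnmt3b-knockin had Ccl3 at 7.12, 9.35 and 8.31 in c-kit-positive and 10.08, 11.50 and 9.59 in c-kit-negative cells. Those labelled WT had it at 9.77, 10.31 and 9.62 in c-kit-positive and 11.06, 11.40 and 9.83 in c-kit-negative cells. The lowest values were those of c-kit-positive cells labelled Dnmt3b-knockin, and the fractions overlapped over both genotypes, with WT c-kit-positive values reaching 10.31. Ccl3 encodes macrophage inflammatory protein 1 alpha. It was 2.82-fold lower in c-kit-positive cells (log2 -1.50, SE 0.40, adjusted p = 0.0356), a call lost without leukaemia 73, 75 or 81.

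Ccl2, the monocyte chemoattractant protein 1 gene, varied little. For Ccl2, log2 values were 6.35, 6.34 and 6.33 in c-kit-positive and 6.56, 6.78 and 6.55 in c-kit-negative cells of the Dnmt3b-knockin leukaemias. WT cells had 6.56, 6.34 and 6.24 in the c-kit-positive and 6.96, 7.16 and 6.50 in the c-kit-negative fraction. Only leukaemia 73 among the c-kit-positive arrays reached the level of the lower c-kit-negative arrays. Ccl2 was 1.31-fold lower in c-kit-positive cells (log2 -0.39, SE 0.11, adjusted p = 0.0393), a call lost without any 1 leukaemia but 79.

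Cxcl2, a chemokine that recruits neutrophils through Cxcr2, had the largest difference of the module but did not pass without the block at the filter used. The log2 values of Cxcl2 were 6.61, 8.64 and 6.58 in c-kit-positive and 8.37, 11.12 and 8.73 in c-kit-negative cells of leukaemias 81, 83 and 85, labelled Dnmt3b-knockin. In WT leukaemias 73, 75 and 79 they were 7.70, 7.25 and 8.41 in c-kit-positive and 8.91, 8.24 and 9.18 in c-kit-negative cells. Within each leukaemia the c-kit-positive array was lower, by between 0.773 in leukaemia 79 and 2.48 in leukaemia 83 on the log2 scale, yet the fractions overlapped between leukaemias. The mean difference was -1.56, or 2.95-fold lower (adjusted p = 0.0581). Without the block it passed under a stricter filter (limma, adjusted p = 0.0485), and without leukaemia 81 or 83. With the leukaemia as a block the adjusted p was 4.85e-06. Its neighbour Cxcl1, with 0 protein-coding genes between them in RefSeq, had a difference of 0.05.

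Ccl9 and Ccl4 passed with the block, at -0.74 (adjusted p = 0.00681) and -0.32 (adjusted p = 0.00531). Without the block Ccl4 did not pass. Ccl9 then passed only after repeated quantile normalization or without leukaemia 85 (limma, adjusted p = 0.0324 and 0.0384). Ccl5, the T cell chemoattractant RANTES, was highest on 1 array by a wide margin. Ccl5 had 6.18, 6.52 and 6.41 in c-kit-positive and 8.76, 6.63 and 6.57 in c-kit-negative cells labelled Dnmt3b-knockin. Its WT values were 6.28, 6.32 and 6.20 in c-kit-positive and 6.54, 6.16 and 6.20 in c-kit-negative cells. The c-kit-negative array of leukaemia 81 stood at 8.76, those of leukaemias 83 and 85 lay slightly above the 9 arrays of the other groups, and these 9 overlapped. The array of leukaemia 81 was the highest of the 12 for 4 of 12 tested T and NK cell markers, Gzmb and Cd3e among them, and for 3 of 6 B and plasma cell markers, Ighm and Cd79a among them, against 7.98% of all genes. The same array was the highest for 6 of 13 monocyte and macrophage markers and 4 of 13 late neutrophil markers, so this was not particular to lymphocyte markers. The c-kit-negative array of leukaemia 85, where Ccl5 was 6.57, was the highest for 5 of the 12 T and NK cell markers and 1 of the 6 B and plasma cell markers, against 23.4% of all genes. It was also the highest for 2 of the 13 monocyte and macrophage markers and 6 of the 13 late neutrophil markers. The part of these cells in the Ccl5 value was not tested. Cxcl10, an interferon-induced chemokine, and Cxcl16 did not pass over both genotypes in either fit of all 12 arrays. Without leukaemia 85, Cxcl10 passed in the fit without the block (limma, adjusted p = 0.0476).

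**Figure D2:**
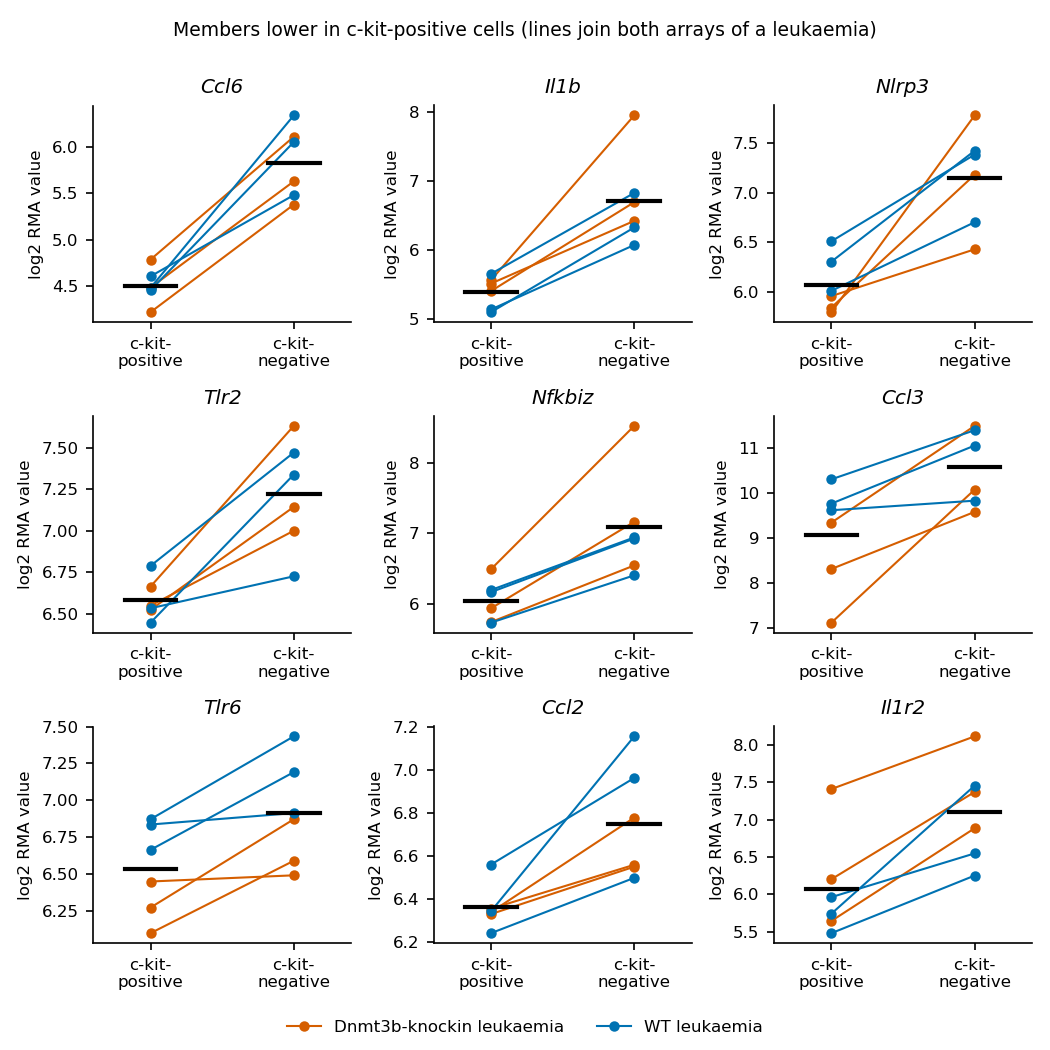
Log2 RMA values of the 9 members called lower in c-kit-positive cells, with c-kit-positive arrays left of c-kit-negative arrays, lines joining both arrays of a leukaemia, colour for the genotype label and black bars for the mean of 6 arrays. All lines run upward to the c-kit-negative array, and only Il1b and Ccl6 show no overlap.

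Of the 8 receptors and sensors, 4 fell in c-kit-positive cells and 6 fell with the block. Nlrp3, the sensor of the inflammasome that matures interleukin-1 beta, had the smallest p among them. In Dnmt3b-knockin leukaemias Nlrp3 measured 5.84, 5.80 and 5.96 in c-kit-positive and 7.18, 7.78 and 6.43 in c-kit-negative cells. WT leukaemias gave 6.31, 6.51 and 6.01 in c-kit-positive and 7.42, 7.38 and 6.70 in c-kit-negative cells. Within each genotype label the fractions did not overlap, although the highest WT c-kit-positive array exceeded the lowest Dnmt3b-knockin c-kit-negative array. Nlrp3 was 2.11-fold lower in c-kit-positive cells (log2 -1.08, SE 0.20, adjusted p = 0.00555).

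Tlr2, which forms receptors for bacterial lipoproteins with Tlr1 or Tlr6, moved in the same direction. The 3 Dnmt3b-knockin leukaemias gave Tlr2 values of 6.52, 6.66 and 6.55 in c-kit-positive and 7.14, 7.63 and 7.001 in c-kit-negative cells. Among WT leukaemias, Tlr2 had 6.45, 6.79 and 6.53 in c-kit-positive and 7.34, 7.47 and 6.73 in c-kit-negative cells. Leukaemia 79 had the smallest gap, and its c-kit-negative value lay below the highest c-kit-positive value. Tlr2 was 1.55-fold lower in c-kit-positive cells (log2 -0.64, SE 0.14, adjusted p = 0.0136), a call lost without leukaemia 73, 75 or 83.

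Arrays labelled Dnmt3b-knockin had Tlr6 at 6.10, 6.27 and 6.45 in c-kit-positive and 6.59, 6.87 and 6.49 in c-kit-negative cells. Those labelled WT had it at 6.66, 6.87 and 6.83 in c-kit-positive and 7.19, 7.43 and 6.91 in c-kit-negative cells. The Dnmt3b-knockin values were below their WT counterparts in each fraction, and the fractions overlapped once both labels were joined. Tlr6 was 1.30-fold lower in c-kit-positive cells (log2 -0.38, SE 0.10, adjusted p = 0.039), a call lost without leukaemia 73, 75, 81 or 83. Tlr6 and Tlr1 are neighbours on chromosome 5 with 0 protein-coding genes between them, and Tlr1 did not pass in either fit.

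Il1r2, the decoy receptor that binds interleukin-1 without signalling, was variable between leukaemias. For Il1r2, log2 values were 5.64, 7.41 and 6.20 in c-kit-positive and 6.89, 8.12 and 7.37 in c-kit-negative cells of the Dnmt3b-knockin leukaemias. WT cells had 5.96, 5.74 and 5.48 in the c-kit-positive and 6.55, 7.46 and 6.25 in the c-kit-negative fraction. Leukaemia 83 was the highest in both fractions. Il1r2 was 2.04-fold lower in c-kit-positive cells (log2 -1.03, SE 0.30), and its adjusted p of 0.0488 was close to the threshold, with the call kept in 6 of 13 alternatives and lost without leukaemia 73, 75, 79 or 85. Myd88, the adaptor of most Toll-like receptors, and Tnfrsf1b, tumour necrosis factor receptor 2, passed with the block, at -0.24 (adjusted p = 0.0224) and -0.35 (adjusted p = 0.00537). Without the block they passed only after repeated quantile normalization (limma, adjusted p = 0.0163 and 0.0357). Tlr4, the receptor for lipopolysaccharide, had a positive difference of 0.15 and did not pass.

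None of the 4 NF-kappaB subunits tested passed without the block. Rel reached 7.68, 7.67 and 6.88 in c-kit-positive and 8.42, 9.04 and 7.08 in c-kit-negative cells labelled Dnmt3b-knockin. The WT arrays showed 7.29, 7.73 and 7.91 in c-kit-positive and 7.95, 8.10 and 7.74 in c-kit-negative cells. Rel, the c-Rel subunit of lymphoid and myeloid cells, differed by -0.53 (adjusted p = 0.258, or 0.018 with the block), and leukaemia 85 was low in both fractions. Nfkb2, which encodes the p100 precursor of p52, differed by -0.33 and passed with the block (adjusted p = 0.0125). Relb, its usual partner, differed by -0.15, and Rela, the p65 subunit, by -0.05, and neither passed in either fit.

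All 7 inhibitors and feedback genes had negative differences, and 1 of them, Nfkbiz, fell in the fit of all 12 arrays without the block. Nfkbiz encodes IkappaB-zeta, an atypical nuclear inhibitor protein that is also a coactivator of secondary response genes. The log2 values of Nfkbiz were 5.94, 6.49 and 5.75 in c-kit-positive and 7.16, 8.52 and 6.55 in c-kit-negative cells of leukaemias 81, 83 and 85, labelled Dnmt3b-knockin. In WT leukaemias 73, 75 and 79 they were 6.20, 6.17 and 5.74 in c-kit-positive and 6.94, 6.93 and 6.41 in c-kit-negative cells. Within each label the fractions did not overlap, and the c-kit-negative array of leukaemia 83 was the highest of all. Nfkbiz was 2.05-fold lower in c-kit-positive cells (log2 -1.04, SE 0.27, adjusted p = 0.0307), a call lost without leukaemia 73, 75 or 79.

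Zfp36 had 8.77, 9.50 and 8.57 in c-kit-positive and 9.95, 10.55 and 9.46 in c-kit-negative cells labelled Dnmt3b-knockin. Its WT values were 9.90, 10.06 and 8.91 in c-kit-positive and 10.14, 10.31 and 9.49 in c-kit-negative cells. Zfp36 encodes tristetraprolin, which destabilises messenger RNAs such as that of Tnf. Its c-kit-positive array was lower in all 6 leukaemias, but WT c-kit-positive cells of leukaemias 73 and 75 were as high as some c-kit-negative arrays. The difference of -0.70 had an adjusted p of 0.105, or 8.64e-05 with the block. Nfkbia, IkappaB-alpha, at -0.34 (adjusted p = 0.00952) and Tnfaip3, the ubiquitin-editing enzyme A20, at -0.48 (adjusted p = 0.0231) also passed with the block only. Nfkbib, Nfkbie and Socs3 passed in neither fit of all 12 arrays. Without leukaemia 85, Nfkbib and Nfkbie passed in the fit without the block (limma, adjusted p = 0.0257 and 0.00698).

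Among the 3 other targets, Icam1, an adhesion molecule for leukocytes, differed by -0.36 and passed with the block only (adjusted p = 0.00691). Ptgs2, which encodes cyclooxygenase 2, and Tnfaip2 did not pass in either fit. Ptgs2 was at 6.84 in c-kit-negative cells of leukaemia 83, while the other 11 arrays lay between 5.41 and 5.81.

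Within a label, 3 members fell in c-kit-positive cells of the Dnmt3b-knockin leukaemias, where 0.752% of all genes were called lower. These were Ccl6 at -1.21 (adjusted p = 0.0128), Il1b at -1.53 (adjusted p = 0.0258) and Nlrp3 at -1.26 (adjusted p = 0.0353). The count was 16 with the block, against 2.75% of genes lower, 0 without leukaemia 83, 1 without leukaemia 75 or 81, 2 without leukaemia 73 and 7 without leukaemia 85. Leukaemias 73 and 75 are WT, so without them the differences within the Dnmt3b-knockin label stayed as they were. Only the spread shared over the groups and the adjustment changed. The 3 c-kit-positive arrays did not overlap the 3 c-kit-negative arrays in 11 members that were lower, which is 29.7%, against 6.38% of genes.

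In the WT leukaemias 1 member, Ccl6, fell in c-kit-positive cells (log2 -1.44, adjusted p = 0.0109), where 0.371% of genes were called lower. The count was 11 with the block, against 3.05% of genes lower, 0 without leukaemia 73 or 75 and 2 without leukaemia 85. Leukaemia 85 carries the other label, so without it the WT differences stayed as they were. Only the shared spread and the adjustment changed. Groups did not overlap in 9 members that were lower (24.3%), against 13.2% of genes. The median member difference was -0.45 in the Dnmt3b-knockin and -0.23 in the WT leukaemias, where all genes had -0.02 and -0.03. By leukaemia, the median over the members was -0.52 in 81, -0.60 in 83 and -0.21 in 85, and -0.29 in 73, -0.26 in 75 and -0.10 in 79.

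**Figure D3:**
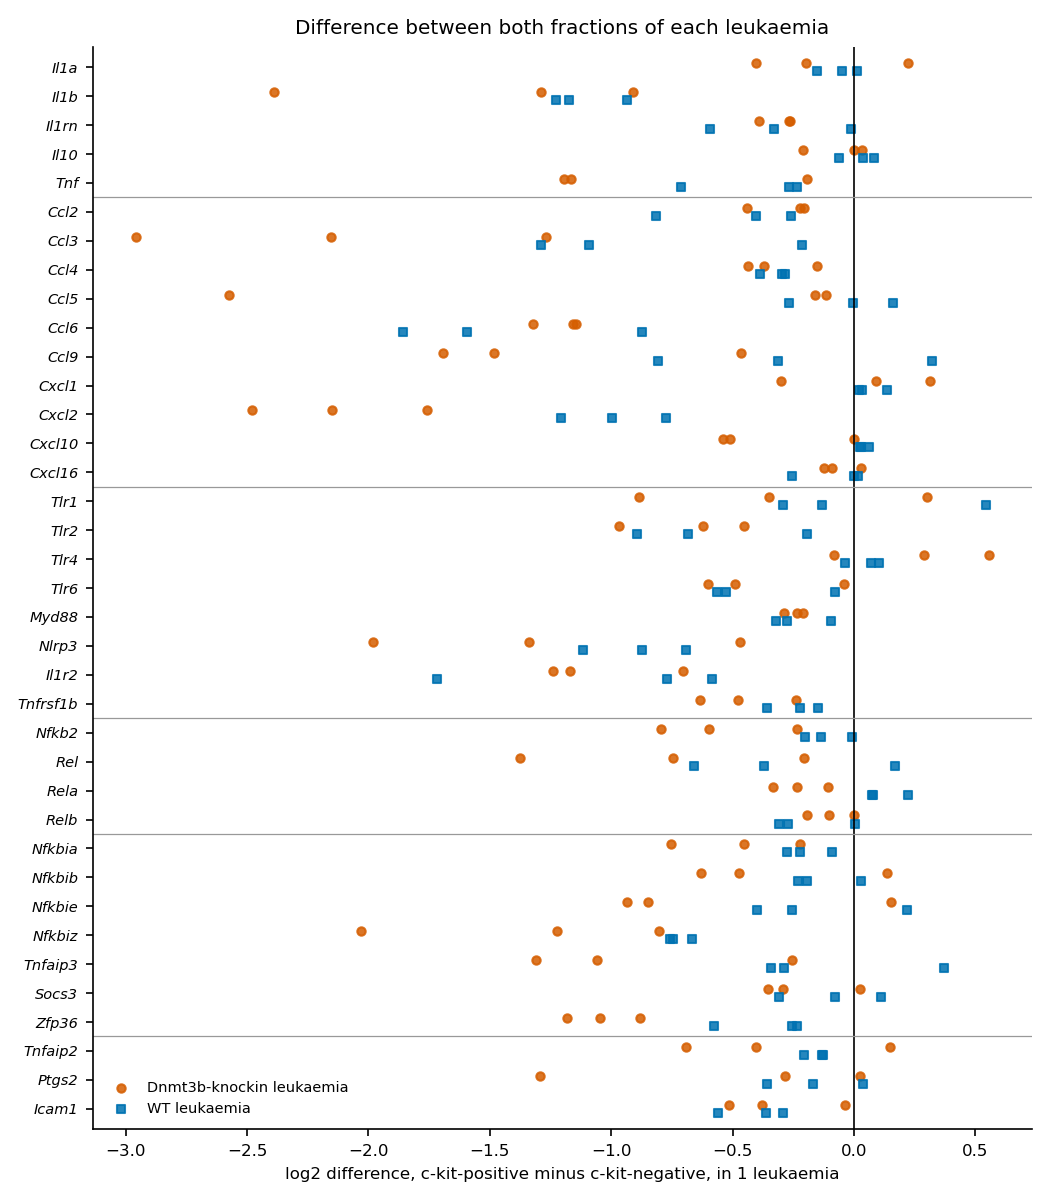
Log2 difference of the c-kit-positive minus the c-kit-negative array in each leukaemia (horizontal axis), for each tested member (rows, grouped by role), with circles for the 3 Dnmt3b-knockin and squares for the 3 WT leukaemias. Points lie mainly left of 0, and the Cxcl2 circles lie left of its squares.

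Arrays of 1 group differed among themselves. The c-kit-negative array of leukaemia 83 held the highest value of the 12 arrays in 19 of 37 members (51.4%), against 7.39% of all genes. These members included Il1b, Tnf, Ccl3, Cxcl2, Nlrp3, Il1r2, Rel, Nfkb2, Nfkbia, Nfkbiz, Tnfaip3, Zfp36 and Ptgs2. The c-kit-negative array of leukaemia 85, with the same label, was highest in 3 members, against 23.4% of all genes. Its Rel, Nfkb2 and Nfkbie values of 7.08, 6.03 and 5.22 were below every other c-kit-negative array. Centred on each gene's mean, the member median in the c-kit-negative arrays was 0.28 in leukaemia 81, 0.46 in 83 and -0.06 in 85, against 0.09, 0.11 and -0.06 in WT leukaemias 73, 75 and 79.

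Monocyte, late neutrophil and primary granule markers moved with the fraction. Of 13 tested monocyte and macrophage markers, 5 fell in c-kit-positive cells (38.5%), and of 13 late neutrophil markers 7 fell (53.8%) and 1 rose, against 2.41% of all genes called lower and 5.84% called higher. All 6 primary granule genes rose. The summed log2 level of the monocyte markers was 86.56 to 86.92 in c-kit-positive and 93.22 to 96.73 in c-kit-negative cells labelled Dnmt3b-knockin, against 87.05 to 89.22 and 92.41 to 95.87 in the same fractions labelled WT. Their differences over both genotypes ran from -3.595 to 0.159, with a median of only -0.19. Their centred medians overlapped in WT, at 0.041 in c-kit-positive cells of leukaemia 75 and -0.003 in c-kit-negative cells of leukaemia 79. The late neutrophil sum was 115.53 to 118.10 in c-kit-positive and 129.40 to 132.72 in c-kit-negative cells labelled Dnmt3b-knockin. In the WT leukaemias it was 99.95 to 108.29 in c-kit-positive and 112.72 to 121.89 in c-kit-negative cells. Of the T and NK cell markers 0 of 12 were called (0 higher and 5 lower at an unadjusted p of 0.05), with a median of -0.15, and Gzma lay under the filter on all arrays. Erythroid, megakaryocyte, dendritic cell and stroma markers had 0 called. Of 6 B and plasma cell markers 1 fell, and of 7 leukaemic blast markers 2 fell and 1 rose. The part of these cell types in the member differences was not tested.

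Of the 141 other tested genes on lists of the same pathway, 26 fell in c-kit-positive cells over both genotypes (18.4%, against 2.41% of all genes) and 1 rose (against 5.84% of all genes), with a median of -0.13. Among 24 other receptors and adaptors, 9 fell (37.5%). They included Tlr13, a sensor of bacterial ribosomal RNA, at 3.50-fold lower (adjusted p = 0.00275) and Il10ra, a chain of the interleukin-10 receptor, at 2.23-fold lower (adjusted p = 0.00261). Tlr7 and Tlr9, endosomal sensors of nucleic acids, were 1.73-fold (adjusted p = 0.003) and 1.62-fold (adjusted p = 0.00394) lower. Of 12 chemokine and cytokine receptors 5 fell (41.7%), among them Cxcr2, the receptor for Cxcl2, at 2.06-fold (adjusted p = 0.000504) and Csf1r, the macrophage growth factor receptor, at 2.75-fold (adjusted p = 0.00192). Csf1r, Ccr2, Cx3cr1, Cxcr2 and Csf3r are also among the cell type markers above.

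The lists of the signalling machinery, feedback, targets and other cytokines are read against the same 2.41% of all genes called lower. Of 22 kinases and ubiquitin ligases 2 fell (9.09%), Birc3 (1.46-fold, adjusted p = 0.00151) and Map3k8 (1.24-fold, adjusted p = 0.0305), with a median of -0.01 over the list. Of 20 feedback genes 2 fell (10%), Zfp36l1 (1.59-fold) and Tnfaip8l2 (1.36-fold), and Tax1bp1, an adaptor of A20, rose (1.37-fold, adjusted p = 0.0243). Of 11 inflammasome genes 0 passed, with 0 of them higher and 1 lower at an unadjusted p of 0.05. Of 27 other NF-kappaB targets 6 fell (22.2%), led by Clec4e, a receptor for mycobacterial glycolipid, at 2.85-fold (adjusted p = 0.00455), Plaur, the urokinase receptor, at 2.03-fold, and Plek, at 2.15-fold. Of 25 other cytokines and chemokines 2 fell (8.0%), Tnfsf9 (1.47-fold) and Osm, oncostatin M (1.40-fold).

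Between the labels, 0 members were called over both fractions (limma on leukaemia means, 3 against 3), where 5 genes, or 0.0261% of those tested, were called. The count was 0 with the block as well, where 0.178% of genes were called. At an unadjusted p of 0.05, 2 members were higher and 2 were lower in Dnmt3b-knockin leukaemias, against 2.37% and 6.0% of all genes. The member median was 0.08, against 0.01 over all genes. Groups of leukaemia means did not overlap for Ccl5 and Relb, which were higher (5.52% of genes), and for Ccl9 and Tlr6, which were lower (7.45% of genes).

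The lowest p among the members was that of Tlr6, whose values are given above. Its difference of -0.52 between Dnmt3b-knockin and WT leukaemias had a 95% confidence interval of -0.77 to -0.28 and an adjusted p of 0.222, or 0.145 with the block. The 3 Dnmt3b-knockin leukaemias gave Ccl9 values of 6.89, 5.86 and 6.72 in c-kit-positive and 8.37, 7.56 and 7.19 in c-kit-negative cells. Among WT leukaemias, Ccl9 had 7.54, 7.87 and 8.65 in c-kit-positive and 8.36, 8.18 and 8.33 in c-kit-negative cells. Ccl9 encodes macrophage inflammatory protein 1 gamma. Its c-kit-positive arrays labelled Dnmt3b-knockin lay below the WT ones, and the c-kit-negative arrays of the labels overlapped. Ccl9 differed by -1.06 over both fractions (95% confidence interval -1.59 to -0.52, adjusted p = 0.27), and without leukaemia 81 it was called lower (-1.32, adjusted p = 0.0323). Leukaemia 81 was the highest of the Dnmt3b-knockin leukaemias for Ccl9 in each fraction, so a fit without it cannot test the label.

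Nfkbie, which encodes IkappaB-epsilon, split the Dnmt3b-knockin leukaemias. Arrays labelled Dnmt3b-knockin had Nfkbie at 5.82, 5.75 and 5.37 in c-kit-positive and 6.67, 6.69 and 5.22 in c-kit-negative cells. Those labelled WT had it at 5.13, 5.17 and 5.48 in c-kit-positive and 5.39, 5.57 and 5.26 in c-kit-negative cells. Leukaemias 81 and 83 were above every WT array of the same fraction, whereas leukaemia 85 lay among the WT values in c-kit-positive cells and below them in c-kit-negative cells. The difference of 0.59 over both fractions had an adjusted p of 0.533, and without leukaemia 85 it was 0.90 (adjusted p = 0.0232). That fit leaves out the leukaemia already seen to be low, so it cannot test the label.

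In c-kit-positive cells 0 members were called between the labels, where 27 genes (0.141%) were. Ccl9 had the lowest p (log2 -1.53, SE 0.33, adjusted p = 0.108), and without leukaemia 81 it was called lower (-1.73, adjusted p = 0.0379). Leukaemia 81 was the highest of its group there, so that fit is no test of the label either. Tlr6 differed by -0.52 (adjusted p = 0.215), Ccl3 by -1.64 (adjusted p = 0.325) and Zfp36 by -0.68 (adjusted p = 0.551). Groups did not overlap for Tlr4, which was higher (7.56% of genes), and for Ccl3, Ccl9, Tlr6 and Nlrp3, which were lower (10.8% of members, against 9.88% of genes). At an unadjusted p of 0.05, 0 members were higher and 3 were lower, against 3.03% and 6.86% of genes. The member median was 0.02, against 0.01 over all genes. Late neutrophil markers had a median difference of 1.04 in this comparison, with 3 of 13 called higher, and their part in the member values was not tested.

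In c-kit-negative cells 0 members were called between the labels, where 12 genes (0.0627%) were. The member median was 0.12, against -0.00 over all genes, with 30 of 37 members higher, against 9461 of the 19152 genes tested. This lean was uneven within the label. The centred member median of this fraction was 0.28 in leukaemia 81, 0.46 in 83 and -0.06 in 85, against 0.09, 0.11 and -0.06 in WT leukaemias 73, 75 and 79. Tlr6 differed by -0.53 (adjusted p = 0.56), Nfkbie by 0.79 (adjusted p = 0.787), Ccl5 by 1.02 (adjusted p = 0.788) and Cxcl10 by 0.32 (adjusted p = 0.788). Without leukaemia 81 the Ccl5 difference was 0.30, and without leukaemia 85 Nfkbie (1.27, adjusted p = 0.00323) and Nfkb2 (0.91, adjusted p = 0.0158) were called higher. Leukaemia 85 had the lowest c-kit-negative value of both genes, so the fit without it cannot test the label. Groups did not overlap for Ccl5, which was higher (4.22% of genes), and for Tlr6, which was lower (4.66% of genes). At an unadjusted p of 0.05, 3 members were higher and 1 was lower, against 2.33% and 3.76% of genes. Of the other pathway genes, Cxcr2 rose 2.48-fold (adjusted p = 0.0179), and the late neutrophil markers, among them Cxcr2, had a median difference of 0.80 with 3 of 13 higher.

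**Figure D4:**
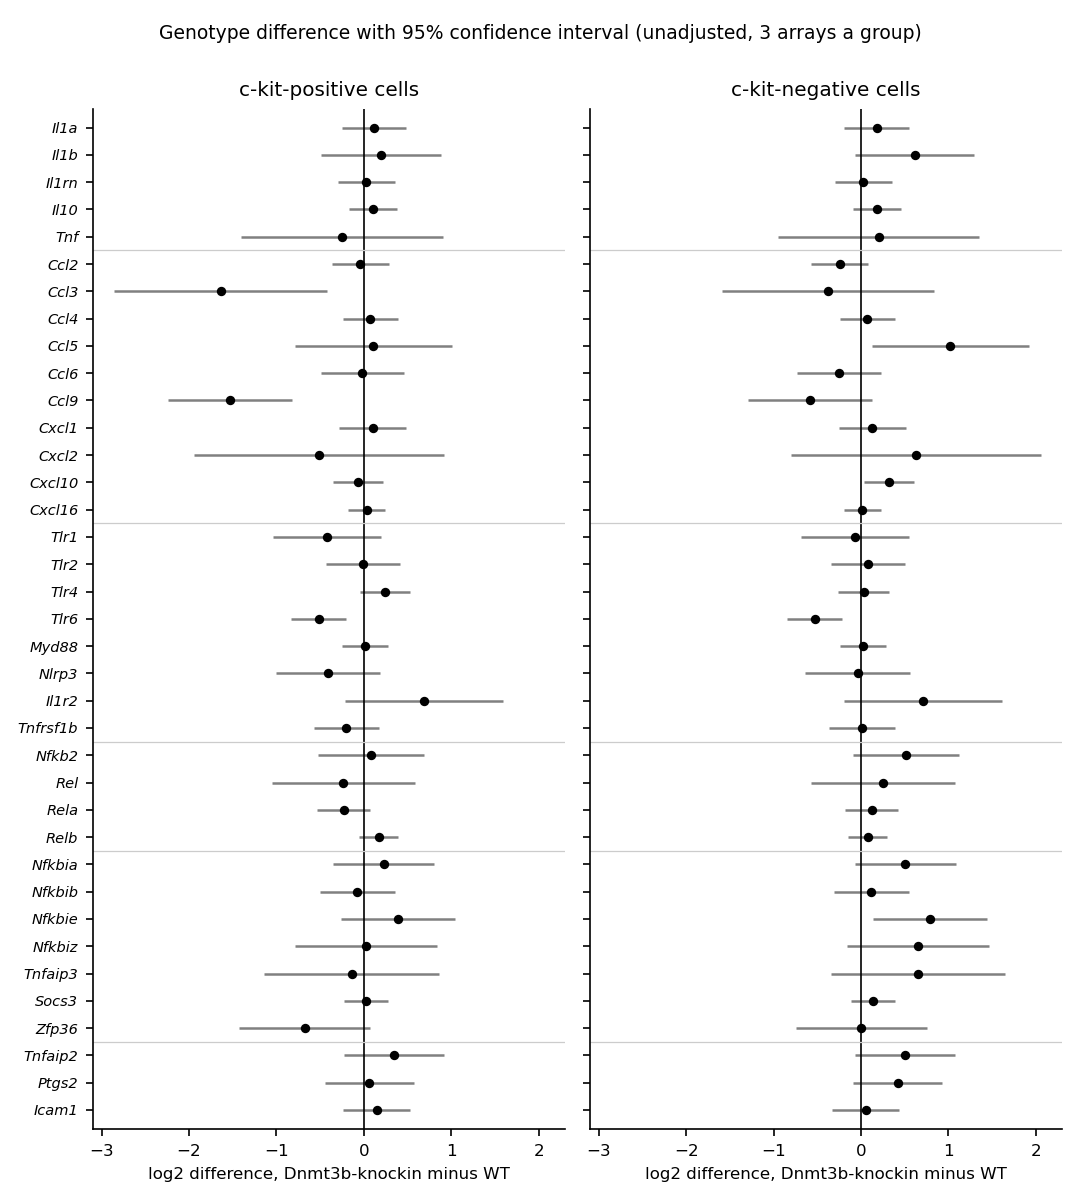
Log2 difference of Dnmt3b-knockin minus WT (horizontal axis) for each tested member, in c-kit-positive cells (left) and c-kit-negative cells (right), as the estimate of the 12-array fit with its unadjusted 95% confidence interval (3 arrays a group). Intervals for Ccl9 and Ccl3 in c-kit-positive cells, Tlr6 in both, and Ccl5, Nfkbie and Cxcl10 in c-kit-negative cells leave 0 out, and 0 members passed after adjustment.

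Whether the c-kit difference itself differed between the labels was tested by the interaction. It called 0 members and 0 of all genes (0.0%), with or without the block, and 0 members had an unadjusted p under 0.05, against 232 genes higher (1.21%) and 195 lower (1.02%). The member median was -0.21, against 0.00 over all genes, and 28 of 37 members had a negative interaction, against 49.2% of all genes. A negative interaction means that c-kit-positive cells were lower relative to c-kit-negative cells under the Dnmt3b-knockin label. The lowest p values were those of Cxcl10 (-0.39), Ccl9 (-0.95), Rela (-0.35) and Ccl3 (-1.26), all with an adjusted p of 1. For Cxcl10, log2 values were 5.34, 5.39 and 5.33 in c-kit-positive and 5.86, 5.93 and 5.33 in c-kit-negative cells of the Dnmt3b-knockin leukaemias. WT cells had 5.48, 5.36 and 5.43 in the c-kit-positive and 5.42, 5.33 and 5.41 in the c-kit-negative fraction. Only the c-kit-negative arrays of leukaemias 81 and 83 stood above the other 10. Rela had 8.02, 7.93 and 7.69 in c-kit-positive and 8.36, 8.16 and 7.80 in c-kit-negative cells labelled Dnmt3b-knockin. Its WT values were 8.01, 8.19 and 8.13 in c-kit-positive and 7.93, 8.11 and 7.91 in c-kit-negative cells. The Dnmt3b-knockin values had the c-kit-positive array lower in each leukaemia and the WT values had it higher, while all groups overlapped.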

How the data were processed

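Gene expression was measured on Affymetrix arrays of 12 sorted fractions. The deposited values are log2 values made by the authors with RMA in Affymetrix Expression Console, per the submitters' processing notes, for 41345 probe sets. Versions and genome build are not given in the sources used here. Values were used as deposited. The probe annotation gave 1 symbol to 23521 probe sets, several to 1814 and did not list 16010, and the highest-mean probe set stood for each gene. Genes had to exceed log2 4.61, the 25th percentile, on at least 3 arrays, which removed 3028 genes.

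One limma model (3.58.1, R 4.3.3) with 4 group means and 8 residual degrees of freedom gave the contrasts, and leukaemia means gave the genotype comparison over both fractions. Tests were two-sided, with Benjamini-Hochberg adjustment over 19152 genes and a threshold of 0.05, and were checked on simulated data. The array scripts used pandas 2.3.3. For arrays there is no depth, so their number limits the precision.

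Both arrays of a leukaemia share its number in the labels, and their deviations from the group means correlated at 0.279 to 0.601 in all 6 leukaemias, so the number was used as a replicate block (fixed for c-kit contrasts, random with statmod 1.5.0 and a correlation of 0.353 for genotype contrasts). The alternatives changed the filter, scaling, probe set, variance, block, arrays in the fit or left out a leukaemia. Values on every array were to be given for members past the threshold in a comparison and for the 4 members with the smallest p in each. The values of Rel, Tnf and Cxcl2 are printed beside these and were chosen after they were seen. The members and all gene lists were chosen with earlier results of these data known.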

Additional observations from a re-analysis of the deposited data

Results flagged for a closer look

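For 2 members the c-kit difference had a sign shared by all 3 Dnmt3b-knockin leukaemias and the opposite sign in all 3 WT leukaemias, although for Cxcl10 the sign in leukaemia 85 rests on a difference of -0.001. In Cxcl10 the c-kit-positive array was lower in every Dnmt3b-knockin leukaemia (-0.51, -0.54 and -0.001 on the log2 scale in 81, 83 and 85) and higher in every WT leukaemia (0.06, 0.03 and 0.02 in 73, 75 and 79). The interaction was -0.39, with an adjusted p of 1 with limma and 0.82 with the block. In Rela the differences were -0.34, -0.24 and -0.11 in the Dnmt3b-knockin leukaemias and 0.08, 0.07 and 0.22 in the WT leukaemias. The interaction was -0.35, with an adjusted p of 1, or 0.791 with the block. Neither difference passed the threshold.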

How the results depend on the processing

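No member called without the block in a comparison, or among its smallest p-values, changed direction there under any alternative run. Directions of the other members were not counted. Small differences among these, such as that of Cxcl1 between the fractions, can change sign when a leukaemia is left out. Over all alternatives, 387 values of the called and smallest-p members kept their side of the threshold, 39 lost a call and 9 gained one. Calls gained by other members, as with the block, are not in this count. With the leukaemia as a replicate block, the members called in c-kit-positive against c-kit-negative cells numbered 16 (Dnmt3b-knockin), 11 (WT) and 22 (both), and the genes 1666, 2109 and 3758, where 360, 147 and 1580 were called without it, and 34 genes were called between the labels over both fractions in place of 5. The block left the members called between the labels and in the interaction at 0 and changed no other member's call. Centring each array on its median gave 5 members and, in WT, 69 genes between the fractions, and 2 genes between the labels. Repeated quantile normalization gave 543 genes in the Dnmt3b-knockin fractions, where it also called Ccl9 lower. Over both genotypes it added Ccl9, Myd88 and Tnfrsf1b to the members called. Between the labels in c-kit-positive cells, 17 genes were called with the mean of all probe sets and 64 in a fit to that fraction alone, against 27, and in c-kit-negative cells 1 in such a fit, against 12. Leaving out 1 leukaemia moved the members called between fractions to 0 to 7 (Dnmt3b-knockin), 0 to 2 (WT) and 3 to 13 (both), with 58 to 367, 1 to 662 and 503 to 2087 genes and medians of -0.61 to -0.30, -0.26 to -0.17 and -0.41 to -0.31. Between the labels it gave 0 to 1 members over both fractions, 0 to 1 in c-kit-positive and 0 to 2 in c-kit-negative cells, with 2 to 115, 0 to 123 and 3 to 83 genes and medians of 0.01 to 0.11, -0.01 to 0.03 and 0.03 to 0.21. The interaction kept 0 members and 0 to 1 genes, with medians of -0.41 to -0.12. Each label had 3 leukaemias, and a fit without one rests on 2. A contrast within 1 label keeps its differences when a leukaemia of the other label is left out. Only the shared spread and the adjustment change there. The cause of the other shifts was not tested.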
